A study of Mus musculus with 48 samples.

Results

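Twist1, Twist2, Hand2, Pitx1, Meox1, Meox2, Msx1, Msx2 and Prrx1 are transcription factors of embryonic mesenchyme and limb. Their RNA was followed through tumors of a Myc-driven mouse model of Group 3 medulloblastoma, a cancer of the cerebellum. The 9 genes were taken by symbol out of 34591 gene symbols and were found in all 48 libraries. They were chosen by their CPM (read counts scaled to the same total on genes in each library) in the comparisons of Ezh2 knockout, rescue and Gfi1 overexpression, so those values are given as a description. The Cas9 libraries of all lines entered that choice, so differences between them, and between Ezh2 overexpression alone and Cas9, are given as a description too.

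Total RNA was sequenced from 13 groups of libraries. Set 1 held Ezh2 knockout (Ezh2 KO) and Cas9 control tumors of lines 19251, 19554 and 19568, with 3 libraries each. Set 2 held line 19568 in the arms Ezh2 KO + Ezh2 OE (the knockout with Ezh2 put back, here called the rescue), Ezh2 KO, Ezh2 OE (overexpression alone) and Cas9, with 3 libraries each by label. The description of rescue replicate 2 names the overexpression and not the knockout, and its title was followed, so every rescue value rests in part on that title. A further 8 Gfi1 overexpression (Gfi1 OE) and 6 control libraries came from line 19251, with 4 more libraries under the label WT GNP Myc Gfi1. Per the labels, tumorsphere cells were infected with retroviral vectors, sorted for red and green fluorescence, expanded and transplanted into the cortex of CD-1 nu/nu mice, an immunodeficient host. The labelled genotype of all groups, controls included, was p53-/-;p18-/-, apart from the 4 WT libraries. Each tumor can hold cells of its host, and the labels do not say that replicates are separate animals or independent knockout clones, so p-values measure the spread between these libraries.

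Ezh2 is the methyltransferase of Polycomb repressive complex 2, an assembly that methylates histone H3 at lysine 27 and keeps developmental regulators silent in cells that do not use them. Promoters rich in CpG dinucleotides are its common targets. Twist1, Twist2 and Hand2 are basic helix-loop-helix factors. Twist1 and Twist2 act in mesoderm, skull and skin mesenchyme and Twist1 in epithelial-mesenchymal transition, and Hand2 acts in heart, limb bud and branchial arches. Pitx1 is a paired-like homeobox factor of the hindlimb and pituitary, and Prrx1 a paired-related one of limb and face mesenchyme. Meox1 and Meox2 pattern the somites, and Msx1 and Msx2 act downstream of bone morphogenetic proteins (BMP) in face and limb.

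The start-site sequence was looked at because Polycomb targets are often CpG-rich. RefSeq windows (build GRCm38.p6) from 250 bases before to 50 bases after the start were matched for 7 members, namely Twist1, Twist2, Hand2, Meox2, Msx1, Msx2 and Prrx1. CG, which reads the same on both strands, was counted and is in capitals below. Twist1, Twist2 and Hand2 are shown because they were higher with Ezh2 KO in 2 lines, and Prrx1 because it held the fewest CG among the 7.
Twist1: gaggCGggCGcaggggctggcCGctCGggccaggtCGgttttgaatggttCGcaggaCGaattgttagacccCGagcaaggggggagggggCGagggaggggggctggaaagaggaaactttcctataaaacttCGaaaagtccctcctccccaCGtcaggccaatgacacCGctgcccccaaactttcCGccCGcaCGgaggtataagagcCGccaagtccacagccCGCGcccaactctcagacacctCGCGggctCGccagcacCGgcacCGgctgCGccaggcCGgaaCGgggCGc
Twist2: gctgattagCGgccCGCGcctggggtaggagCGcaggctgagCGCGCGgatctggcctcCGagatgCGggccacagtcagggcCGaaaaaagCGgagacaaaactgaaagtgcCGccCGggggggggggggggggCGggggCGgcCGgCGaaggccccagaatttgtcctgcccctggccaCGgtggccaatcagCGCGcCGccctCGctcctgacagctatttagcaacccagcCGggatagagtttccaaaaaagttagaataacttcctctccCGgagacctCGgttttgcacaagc
Hand2: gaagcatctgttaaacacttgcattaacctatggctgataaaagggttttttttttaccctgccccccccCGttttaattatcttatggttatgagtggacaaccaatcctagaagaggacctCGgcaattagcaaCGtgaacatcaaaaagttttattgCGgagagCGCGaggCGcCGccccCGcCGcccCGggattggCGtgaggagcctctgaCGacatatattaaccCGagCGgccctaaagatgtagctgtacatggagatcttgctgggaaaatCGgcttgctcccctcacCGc
Prrx1: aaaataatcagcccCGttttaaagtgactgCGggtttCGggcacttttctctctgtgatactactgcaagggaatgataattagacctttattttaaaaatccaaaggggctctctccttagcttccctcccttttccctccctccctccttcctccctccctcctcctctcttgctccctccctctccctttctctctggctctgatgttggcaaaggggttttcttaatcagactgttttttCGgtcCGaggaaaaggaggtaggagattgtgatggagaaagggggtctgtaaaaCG
Twist1 lies on the + strand at chr12:33957421-33957720 and held 27 CG, and Twist2 lies on the + strand at chr1:91801211-91801510 and held 25. Hand2 lies on the + strand at chr8:57320733-57321032 and held 17 CG, and Prrx1 lies on the - strand at chr1:163313601-163313900 and held 6. Msx1 held 29 CG, Msx2 22 and Meox2 12. Over 32851 windows of 300 bases the median was 7 CG and 94.6% held at least 1. As many CG as Msx1, Twist1 or Twist2 were held by 12.9%, 15.5% and 18.4% of windows, as many as Msx2, Hand2 or Meox2 by 23.1%, 31.4% and 39.6%, and as many as Prrx1 by 56.4%. The windows are in another build than the counts (mm9), and the counts hold no chromatin measurement.

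The libraries held between 2687641 and 94733334 counts on genes (median 29416585), and levels are in CPM, which is not scaled by gene length, so levels are compared within a gene. The targeted gene checks some of the labels. Ezh2 RNA in set 1 measured 71.4, 74.7 and 39.8 CPM in Ezh2 KO and 32.8, 88.2 and 72.6 CPM in Cas9 of line 19251, 79.2, 65.3 and 77.8 CPM in Ezh2 KO and 78.4, 83.0 and 64.2 CPM in Cas9 of line 19554, and 44.3, 38.0 and 48.7 CPM in Ezh2 KO and 68.0, 72.0 and 83.4 CPM in Cas9 of line 19568. In set 2 it measured 46.9, 51.4 and 55.7 CPM in Ezh2 KO and 91.9 and 93.5 CPM in Cas9. A gene-level count cannot show whether a Cas9 cut broke the reading frame. In set 2 the libraries titled Cas9 replicate 1 and rescue replicate 3 entered no group, because title and file of each carry different numbers. Ezh2 measured 5128 CPM in the first and 101 CPM in the second, against 5037 and 6576 CPM in the other rescue libraries. Some other libraries stood apart. Cas9 replicate 1 of line 19251 held 7.6 CPM summed over 4 proliferation markers, against at least 663 CPM in the other 47 libraries, and 9.91 CPM of Myc. Cas9 replicate 1 of line 19568 in set 1 held Pitx1, Hand2 and Gfi1 where its partners held little. Gfi1 OE replicate 5 had the fewest counts of all, so that 1 read was worth 0.372 CPM. Gfi1 itself measured 107 to 592 CPM in Gfi1 OE and 0 to 0.2735 CPM in its controls, and stayed below 1 CPM in the WT GNP libraries although their label names it.

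With Ezh2 KO, Twist2, Hand2 and Pitx1 were counted at several CPM in lines 19251 and 19554, whose Cas9 controls held almost none, and Twist1 was higher as well. Twist2 measured 6.22, 4.21 and 4.35 CPM in Ezh2 KO of line 19251, against 0, 0.0938 and 0.079 CPM in its Cas9. In line 19554 it measured 5.70, 6.02 and 6.32 CPM in Ezh2 KO, against 0, 0.0233 and 0 CPM in Cas9, a ratio of 591 with a counting interval (95%, exact) of 106 to 23400 because Cas9 rested on 1 read. The arms did not overlap in either line. In line 19568 Twist2 was already present without the knockout, at 23.7, 26.5 and 37.4 CPM in Ezh2 KO and 42.0, 30.4 and 50.5 CPM in Cas9, which overlap.

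Hand2 followed the same order in the first lines. It measured 2.60, 2.46 and 2.36 CPM in Ezh2 KO of line 19251 and 0 counts in all 3 Cas9 libraries, at least 81.3-fold higher over a floor of 3 counts for the group. In line 19554 it measured 2.56, 3.91 and 2.25 CPM in Ezh2 KO, against 0, 0.0233 and 0 CPM in Cas9 (ratio 295, counting interval 52.6 to 11700). In line 19568 of set 1 it measured 0.629, 0.774 and 1.24 CPM in Ezh2 KO, against 0.618, 0.163 and 0.0526 CPM in Cas9. The lowest Ezh2 KO library there stood just above the highest Cas9 library, replicate 1.

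Pitx1 measured 7.33, 10.3 and 8.78 CPM in Ezh2 KO of line 19251, against 0.0378, 0 and 0.178 CPM in Cas9, a fitted log2 change of 6.51 (SE 1.45). All lines of set 1 were fitted together with a shared estimate of the spread. Each SE and call in set 1 therefore also rests on the spread in the other lines. In line 19554 it measured 9.78, 10.2 and 15.6 CPM in Ezh2 KO, against 0, 0.0699 and 0.0438 CPM in Cas9, a log2 change of 8.14 (SE 1.59). In line 19568 of set 1 it measured 1.65, 1.95 and 3.71 CPM in Ezh2 KO, against 1.44, 0 and 0 CPM in Cas9. The log2 change there was 2.27 (SE 1.18), and 9.32 without Cas9 replicate 1, since the other Cas9 libraries held 0 counts. In set 1 every Ezh2 KO library of a line held more Pitx1 than every Cas9 library of that line, and Cas9 replicate 1 of line 19568 was the only Cas9 library of the set above 0.178 CPM.

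**Figure D1:**
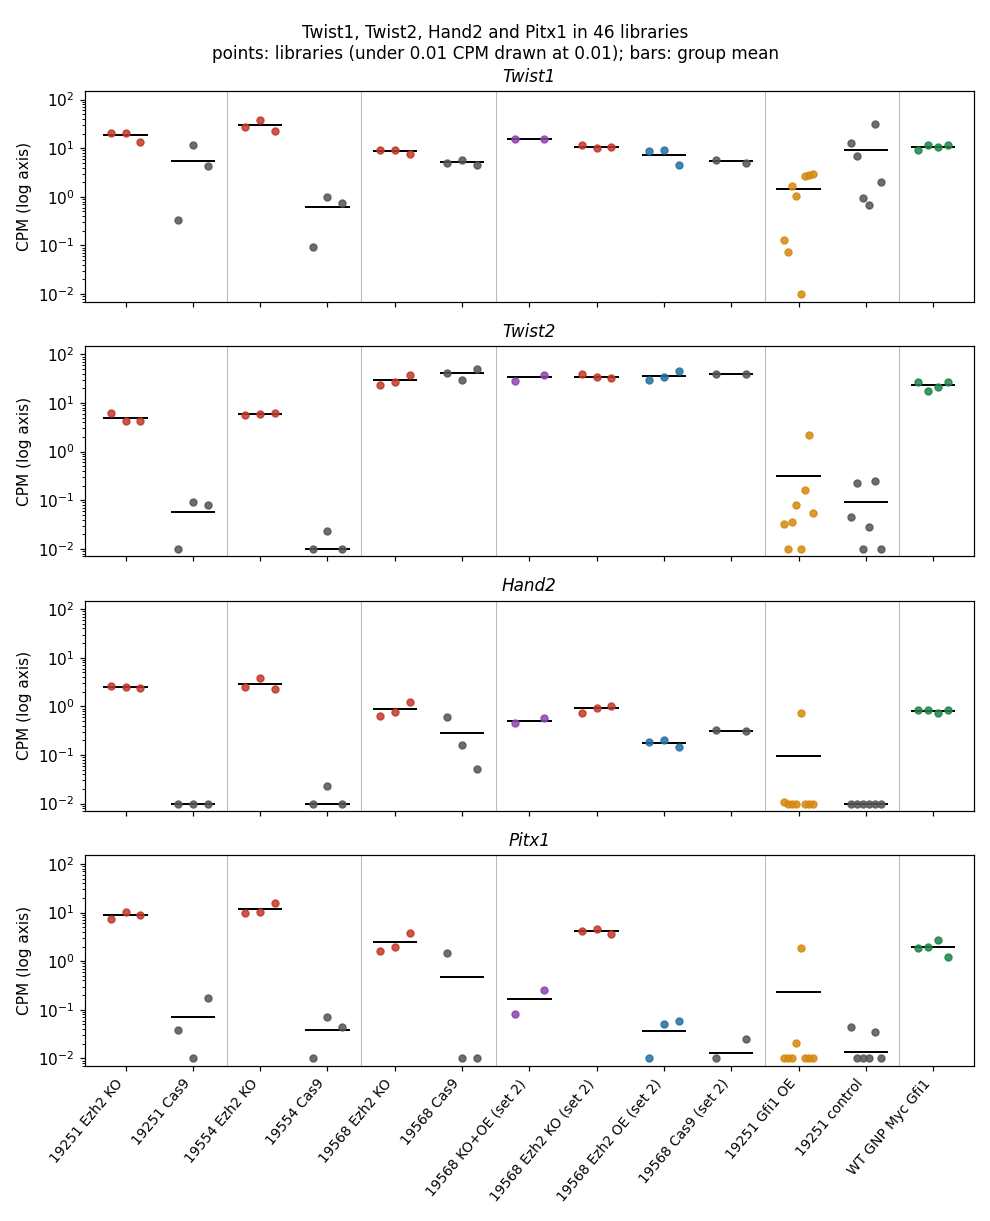
Levels of Twist1, Twist2, Hand2 and Pitx1 in CPM (log axis) in 46 libraries of 13 groups, with a point per library and a bar at the group mean, and with values under 0.01 CPM drawn at 0.01. In lines 19251 and 19554 every Ezh2 KO library of Twist2, Hand2 and Pitx1 lies above every Cas9 library, while Twist2 in line 19568 lies between 23.7 and 50.5 CPM in both arms of set 1.

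Twist1 showed another pattern across the lines, though the test of a difference between lines, given below, did not call it. In line 19554 it measured 27.9, 37.9 and 22.9 CPM in Ezh2 KO, against 0.0915, 0.979 and 0.745 CPM in Cas9, a log2 change of 5.64 (SE 0.95). In line 19251 it measured 20.3, 21.0 and 13.6 CPM in Ezh2 KO, against 0.341, 11.6 and 4.35 CPM in Cas9, where replicate 1 is the library with few proliferation markers. The arms did not overlap, and the log2 change of 1.69 (SE 0.80) became 1.14 without that library. In line 19568 it measured 9.05, 9.16 and 7.75 CPM in Ezh2 KO, against 5.01, 5.71 and 4.52 CPM in Cas9, a log2 change of 0.77 (SE 0.78). Twist1 and Twist2 are paralogs, and how reads that match both were counted is not given in the sources used here. Libraries such as control replicate 5 of line 19251 held 31.0 CPM of Twist1 with 0.243 CPM of Twist2.

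Prrx1 and Meox1 each had arms without overlap in a single line of set 1. Prrx1 measured 24.9, 88.1 and 14.2 CPM in Ezh2 KO of line 19251, against 3.52, 2.06 and 3.18 CPM in Cas9, a log2 change of 3.67 (SE 0.76). In lines 19554 and 19568 its arms overlapped, with log2 changes of 0.42 (SE 0.69) and -1.03 (SE 0.70). Meox1 measured 14.6, 13.8 and 13.6 CPM in Ezh2 KO of line 19568, against 3.33, 6.09 and 5.52 CPM in Cas9, a log2 change of 1.49 (SE 0.66). In line 19251 it measured 3.02, 3.34 and 1.34 CPM in Ezh2 KO and 1.36, 0.375 and 0.929 CPM in Cas9, which overlap, as the arms of line 19554 do.

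Msx1, Msx2 and Meox2 stayed low in most groups of set 1. Msx1 measured 0.857, 1.17 and 0.508 CPM in Ezh2 KO of line 19251, against 0.227, 0.0469 and 0.118 CPM in Cas9, and 3.38, 2.75 and 3.82 CPM in Ezh2 KO of line 19568, against 2.23, 2.66 and 4.52 CPM in Cas9. In line 19554 it measured 0.183, 0.0762 and 0.171 CPM in Ezh2 KO, against 0.152, 0.163 and 4.56 CPM in Cas9. The high value is Cas9 replicate 3, which also held the most Meox1 of its group (6.83 CPM) and 147 CPM summed over 5 skeletal muscle markers, against 4.62 to 5.95 CPM in its partners. Without it the log2 change of Msx1 was -0.13, against -3.44 (SE 1.09) with it, and the part of these markers in the result was not tested. Msx2 did not pass 0.7 CPM in any of the 48 libraries and Meox2 did not pass 0.41 CPM in set 1, and neither was tested there.

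**Figure D2:**
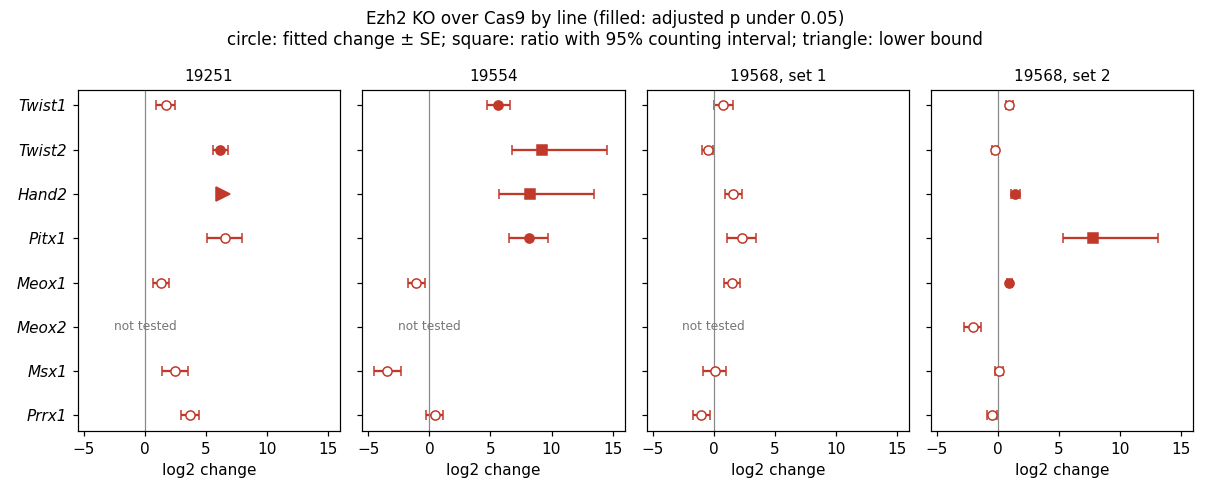
Log2 change of Ezh2 KO over Cas9 for 8 members in the 3 lines of set 1 and in line 19568 of set 2, as a fitted change with its SE (circles), a ratio with its 95% counting interval where Cas9 held 1 to 3 reads (squares) or a lower bound where it held 0 (triangle). Filled symbols passed an adjusted p under 0.05, which for these members is a description: 2, 4, 0 and 3 of them in the order of the panels.

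Of the 9 members 7 passed the filter on low counts in set 1. At an adjusted p under 0.05 (edgeR's quasi-likelihood test), Twist2 and Hand2 were called higher in line 19251, where 0.243% of all 18514 tested genes were called higher, and Twist1, Twist2, Hand2 and Pitx1 in line 19554, where 0.454% were. In line 19568 of set 1 none was called, with 0.027% of genes called. There 2 members had an unadjusted p under 0.05, and DESeq2 and limma-voom called 0. Nothing is read from these counts, since the members were chosen with these comparisons. Among the 7, DESeq2 called 4 in line 19251 and 5 in line 19554, in either direction, the fifth being Msx1, which was lower and is described above for Cas9 replicate 3. With the replicate number as a block 0 and 1 were called. With line 19251 fitted alone 0 were called, and in line 19554 Pitx1 lost its call in 12 of 18 fits that each left out a library. In line 19251 Pitx1 gained a call in 1 of 18 such fits, the fit without Cas9 replicate 1 of line 19568. All libraries of Ezh2 KO lay above all of Cas9 for 6 of the 7 tested members in line 19251 (9.52% of tested genes did so). They did so for 4 in line 19554 (7.95%) and for 4 in line 19568 (10.4%). With the members that did not pass the filter included, the counts were 7, 5 and 5 of 9.

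Markers of other cell types are given beside these values. The sum over 9 fibroblast and meninges markers was 398 to 1110 CPM in Ezh2 KO and 133 to 196 CPM in Cas9 of line 19251, 372 to 1140 CPM in Ezh2 KO and 112 to 434 CPM in Cas9 of line 19554, and 2010 to 2840 CPM in Ezh2 KO and 1170 to 1840 CPM in Cas9 of line 19568. By gene, 5, 5 and 3 of the 9 had a positive log2 change in lines 19251, 19554 and 19568, with medians of 1.07, 0.25 and -0.44, and none was called. No marker of the list was at 0 in any group. In line 19251 the library with the highest Prrx1 (Ezh2 KO replicate 2) also held the highest sum. The sum over 8 pericyte and smooth muscle markers was 115 to 209 CPM in Ezh2 KO and 78.5 to 214 CPM in Cas9 of line 19251, and 134 to 565 CPM in Ezh2 KO and 84.2 to 160 CPM in Cas9 of line 19554. Sums of brain cell types ranged widely in Cas9 of line 19251. The cortical neuron sum over 5 genes was 17.6 to 487 CPM there (median 20.1), against 20.1 to 43.0 CPM in Ezh2 KO. The oligodendrocyte sum was 52.3 to 1120 CPM (median 105), against 97.2 to 747 CPM. For astrocytes it was 409 to 1500 CPM (median 453), against 364 to 792 CPM. The part of these lists in the members' levels was not tested, and in bulk tumors fewer cells of a type and less RNA per cell cannot be told apart.

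The Cas9 controls show how the lines differed without a knockout. The same libraries entered the comparisons that chose the members, and low Cas9 values in lines 19251 and 19554 favoured that choice, so what follows is a description. Line 19568 held far more Twist2 than both other lines. Its 42.0, 30.4 and 50.5 CPM stood against 0, 0.0938 and 0.079 CPM in line 19251, a log2 change of 9.34 (SE 0.66), and against 0, 0.0233 and 0 CPM in line 19554, a ratio of 4060 with a counting interval of 728 to 160000. With each library left out in turn the log2 change against line 19251 stayed between 8.90 and 9.70.

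Hand2 was also higher in Cas9 of line 19568, at 0.618, 0.163 and 0.0526 CPM. It was at least 10.8-fold above line 19251, where it had 0 counts, and 32.6-fold above line 19554 (counting interval 5.26 to 1340). At an adjusted p under 0.05 both were called, both calls were lost without Cas9 replicate 1 of line 19568, and the second also without each Cas9 library of line 19554. Msx1 was higher than in line 19251, at 2.23, 2.66 and 4.52 CPM against 0.227, 0.0469 and 0.118 CPM, a log2 change of 4.44 (SE 1.14), and its call was lost in 14 of 18 fits that each left out a library.

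The other members did not pass in these comparisons. Meox1 measured a log2 change of 2.37 (SE 0.69) over line 19251 and 0.67 (SE 0.66) over line 19554. Prrx1 measured 1.38 (SE 0.70) and 1.59 (SE 0.71). Twist1 measured 3.06 (SE 0.86) over line 19554 and -0.05 (SE 0.78) over line 19251. In all, 3 of 7 tested members were called higher against line 19251, where 1.86% of all genes were, and 2 of 7 against line 19554, where 2.35% were. Nothing about the members is read from these counts. Between Cas9 of lines 19554 and 19251 none was called (0.292% of all genes), with 4 members at an unadjusted p under 0.05 in edgeR, 2 called by DESeq2 and 0 by limma-voom. The fibroblast and meninges sum of 1170 to 1840 CPM in Cas9 of line 19568 was also above 133 to 196 CPM in line 19251 and 112 to 434 CPM in line 19554, and its part was not tested. Most of that sum was Col3a1, at a mean of 1200 CPM in line 19568, 67.9 CPM in line 19251 and 114 CPM in line 19554. Of the list, only Col3a1 was called over line 19251, and only Col3a1 and Lum over line 19554. The titles of set 1 carry another sample prefix for each line, so line and prefix cannot be told apart.

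The effect of Ezh2 KO on Twist2 differed between the lines in a test over all 3, with a log2 change in line 19568 minus that in line 19251 of -6.66 (edgeR adjusted p 0.000631, where 0.0162% of all genes were called). This is a description, as it is built from the comparisons that chose the members. Hand2, with -7.63, and Pitx1, with -4.25, were not called in it, and the value of Pitx1 was 2.80 without Cas9 replicate 1 of line 19568. Twist1, with -0.92, was not called either. Of 18 fits that each left out a library, it was called in 1, without Cas9 replicate 1 of line 19251.

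Set 2 gave line 19568 further knockout libraries and a rescue. Pitx1 was the member with the largest difference. It measured 4.17, 4.59 and 3.65 CPM in Ezh2 KO, against 0 and 0.0255 CPM in Cas9 replicates 2 and 3, a ratio of 223 with a counting interval of 39.8 to 8830. In the rescue it measured 0.081 and 0.256 CPM, a log2 change of -4.47 (SE 0.72) from Ezh2 KO, and a ratio of 10.1 over Cas9 (counting interval 1.46 to 433). The rescue libraries lay between the other arms and overlapped neither.

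Hand2 and Meox1 showed smaller differences of the same order. Hand2 measured 0.446 and 0.5678 CPM in the rescue and 0.733, 0.943 and 1.04 CPM in Ezh2 KO, against 0.322 and 0.306 CPM in Cas9, a log2 change of 1.41 (SE 0.37) for Ezh2 KO over Cas9. Meox1 measured 7.13 and 10.6 CPM in the rescue and 14.5, 13.03 and 11.4 CPM in Ezh2 KO, against 6.76 and 6.14 CPM in Cas9, a log2 change of 0.92 (SE 0.23) for Ezh2 KO over Cas9. Both rescue libraries lay below all Ezh2 KO libraries and above both Cas9 libraries for each gene.

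Twist1, Prrx1 and Meox2 were highest in the rescue among the libraries that entered a group. Twist1 measured 15.4 and 15.2 CPM there, against 11.6, 10.3 and 10.5 CPM in Ezh2 KO and 5.66 and 5.02 CPM in Cas9, a log2 change of 1.49 (SE 0.31) over Cas9. Prrx1 measured 12.3 and 9.20 CPM in the rescue, against 2.33, 4.72 and 4.74 CPM in Ezh2 KO and 5.08 and 5.23 CPM in Cas9. Meox2 measured 0.932 and 0.738 CPM in the rescue, against 0.0637, 0.0429 and 0.0818 CPM in Ezh2 KO and 0.129 and 0.357 CPM in Cas9, a log2 change of 3.66 (SE 0.64) over Ezh2 KO. Ezh2 itself stood at 5037 and 6576 CPM in these rescue libraries, far above the level in Cas9. The library titled Cas9 replicate 1, which held 5128 CPM of Ezh2, had 16.9 CPM of Twist1, 23.1 CPM of Prrx1 and 2.93 CPM of Meox2. With all 12 libraries as labelled, the log2 change of the rescue over Cas9 was -0.38 for Prrx1 and -0.97 for Meox2, against 1.02 and 1.59 without the pair of libraries.

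**Figure D3:**
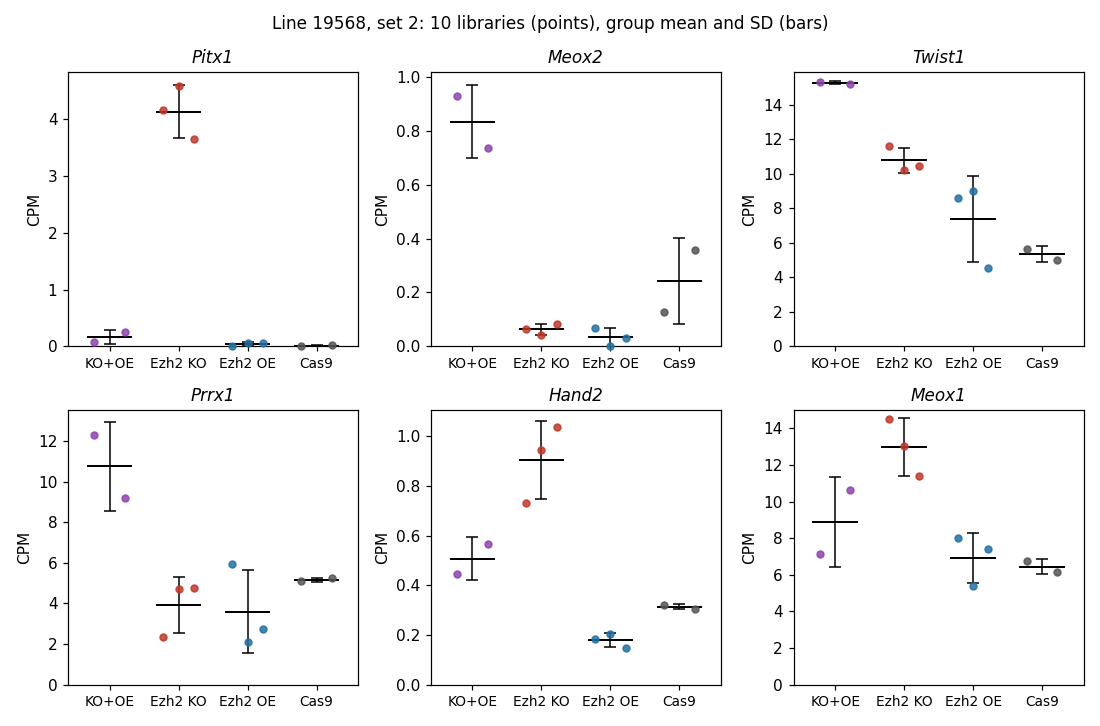
Levels in CPM of 6 members in line 19568 of set 2, with points for the 10 libraries that entered a group and bars for the group mean and SD, the arms running from the rescue (KO+OE) to Cas9. Pitx1 in the rescue is 0.081 and 0.256 CPM, far below its Ezh2 KO libraries, while Twist1, Prrx1 and Meox2 are highest in the rescue.

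Twist2 and Msx1 overlapped between Ezh2 KO and Cas9 in set 2. Twist2 measured 39.0, 33.4 and 32.5 CPM in Ezh2 KO, 28.7 and 38.2 CPM in the rescue, 29.8, 34.3 and 44.9 CPM in Ezh2 OE and 40.0 and 38.5 CPM in Cas9. Msx1 measured 4.43, 5.62 and 4.83 CPM in Ezh2 KO and 4.25 and 4.56 CPM in Cas9. Of 8 members tested, 3 were called higher in Ezh2 KO over Cas9 (Hand2, Pitx1 and Meox1, with 5.88% of all 17663 genes called higher), 2 were called in the rescue over Ezh2 KO (Pitx1 lower and Meox2 higher, with 1.21% of genes called in either direction) and 1 was higher in the rescue over Cas9 (Twist1, 5.14% of genes called higher). With all 12 libraries as labelled these counts were 1, 1 and 0. They were 1, 0 and 0 with the replicate block, and among 10 fits that each left out a library Hand2 in Ezh2 KO lost its call in 8, Meox1 in 5 and Pitx1 in none. Pitx1 and Meox2 in the rescue over Ezh2 KO each lost their call in 5. The call of Twist1 in the rescue over Cas9 was lost without each rescue library and without each Cas9 library. The fibroblast and meninges sum was 2420 to 2680 CPM in Ezh2 KO, 2730 to 3590 CPM in the rescue, 596 to 1370 CPM in Ezh2 OE and 1100 to 1130 CPM in Cas9. By gene, 1 of 8 tested markers of that list had a positive log2 change in Ezh2 KO over Cas9, with a median of -0.69, and 1 was called, Ogn, lower by a log2 change of -2.52.

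Sums over markers of several other cell types were also higher in the rescue, in part through single genes. The endothelium sum over 6 genes was 127 to 143 CPM in the rescue and 75.5 to 111 CPM in Ezh2 KO, against 55.5 to 72.6 CPM in Cas9, with Cdh5 and Pecam1 called higher in the rescue over Cas9. The microglia and macrophage sum was 107 to 126 CPM in the rescue and 55.0 to 108 CPM in Ezh2 KO, against 60.9 to 73.7 CPM in Cas9. Much of the difference was Tmem119, at a mean of 47.9 CPM in the rescue, 37.6 CPM in Ezh2 KO and 9.25 CPM in Cas9. No other gene of that list was called over Cas9. The pericyte and smooth muscle sum was 401 to 495 CPM in the rescue and 397 to 449 CPM in Ezh2 KO, against 287 to 309 CPM in Cas9. The choroid plexus sum was 0.972 CPM in one rescue library and 184 CPM in the other, against 1.72 CPM at most in Ezh2 KO and 1.61 CPM at most in Cas9. The granule neuron lineage sum was 36.4 to 47.3 CPM in the rescue and 37.9 to 40.4 CPM in Ezh2 KO, against 15.3 CPM at most in Cas9. Much of this was Pax6, which averaged 26.1 CPM in the rescue, 21.8 CPM in Ezh2 KO and 4.29 CPM in Cas9. No other gene of that list was called over Cas9 in either arm. Atoh1 had 0 counts in the rescue and in Cas9, and Barhl1 had 0 in Ezh2 KO. The part of all these lists in the members' levels was not tested.

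Overexpression of Ezh2 without the knockout was set against the same Cas9 libraries as Ezh2 KO. Ezh2 was 2526, 1804 and 2100 CPM in Ezh2 OE, against 91.9 and 93.5 CPM in Cas9. Of the 8 tested members 0 were called, and 0.00566% of all genes were, namely 1 gene. In edgeR 1 member, Meox2, had an unadjusted p under 0.05, and DESeq2 and limma-voom called 0. Hand2 measured 0.183, 0.203 and 0.148 CPM in Ezh2 OE, below 0.322 and 0.306 CPM in Cas9, with a log2 change of -0.86 and an interval (95%) of -1.74 to 0.02. Meox2 measured 0.0687, 0 and 0.0297 CPM in Ezh2 OE, against 0.129 and 0.357 CPM in Cas9. For Twist1 the interval of the log2 change was -0.20 to 1.07, for Twist2 -0.61 to 0.35, for Meox1 -0.44 to 0.57, for Msx1 -0.45 to 1.07 and for Prrx1 -1.50 to 0.33. Pitx1 stayed at 0, 0.0508 and 0.0594 CPM in Ezh2 OE, a level of a few reads.

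With Gfi1 OE in line 19251 the medians of Prrx1, Meox1 and Twist1 were lower than in controls, and Hand2 and Pitx1 stayed at 0 in most libraries of both arms. Prrx1 ranged from 2.41 to 5.95 CPM (median 3.63, 8 libraries) in Gfi1 OE and from 5.08 to 24.4 CPM (median 10.7, 6 libraries) in controls, a log2 change of -1.72 (SE 0.41). Of the 8 Gfi1 OE libraries 6 lay below every control, and the ranges overlap. Meox1 ranged from 0.900 to 2.23 CPM (median 1.15) in Gfi1 OE and from 0.889 to 15.6 CPM (median 2.58) in controls. Its log2 change of -1.82 (SE 0.59) was -0.80 without control replicate 5, which alone held 15.6 CPM. Twist1 ranged from 0 to 2.98 CPM (median 1.35) in Gfi1 OE and from 0.668 to 31.0 CPM (median 4.41) in controls, a log2 change of -2.59 (SE 0.94), or -1.59 without the same control.

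Hand2 had 0 counts in all 6 controls and 3 counts over the 8 Gfi1 OE libraries, so no fold is given. Pitx1 had 6 counts in Gfi1 OE, 5 of them in the shallow replicate 5, and 3 in controls. Twist2 stayed at or under 0.162 CPM in 7 Gfi1 OE libraries and at or under 0.243 CPM in all controls, while Gfi1 OE replicate 7 held 2.19 CPM from 83 reads. Msx1 ranged from 0 to 1.12 CPM in Gfi1 OE and from 0.106 to 1.89 CPM in controls, which overlap. The filter on low counts was passed by 3 of the 9 members. Of these 3, Meox1 and Prrx1 were called lower, where 24.6% of all 17024 genes were called and 13.5% were called lower. Meox1 lost its call in 9 of 14 fits that left out a library. The fibroblast and meninges sum was 152 to 658 CPM in Gfi1 OE and 91.4 to 686 CPM in controls, with the highest value in control replicate 5. Its genes moved both ways, with Slc6a13 (log2 change 3.97) and Col1a1 (2.03) called higher and Pdgfra (-1.47) called lower. The pericyte and smooth muscle sum was 59.9 to 460 CPM in Gfi1 OE and 96.5 to 690 CPM in controls, which overlap. Of that list Acta2 was called lower, and Abcc9 and Kcnj8 higher. Some other marker sums did not overlap. The astrocyte sum over 5 genes was 130 to 467 CPM in Gfi1 OE and 553 to 1390 CPM in controls, with 3 of 5 called lower. The skeletal muscle sum was 6.77 to 33.6 CPM in Gfi1 OE and 0.529 to 5.18 CPM in controls, with 3 of 3 tested genes called higher. The granule neuron lineage sum over 6 genes was 66.2 to 135 CPM in Gfi1 OE and 177 to 281 CPM in controls, with 3 called lower and 1 higher. The part of these lists in the members' levels was not tested.

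**Figure D4:**
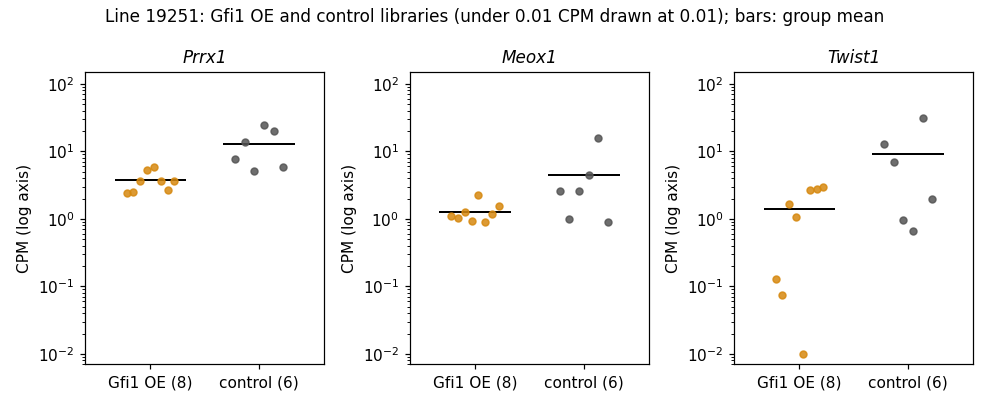
Levels in CPM (log axis) of Prrx1, Meox1 and Twist1 in 8 Gfi1 OE and 6 control libraries of line 19251, with a bar at the group mean and values under 0.01 CPM drawn at 0.01. The highest control of Meox1 (15.6 CPM) and of Twist1 (31.0 CPM) is the same library, and the ranges of both arms overlap for all 3 genes.

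The libraries labelled WT GNP Myc Gfi1 entered no test. They are set beside line 19568 with Ezh2 KO, first in set 1. The ranges of that group overlapped theirs for Twist2, Hand2, Pitx1, Msx1 and Prrx1 but not for Twist1 and Meox1. Twist2 ranged from 17.7 to 27.4 CPM in WT GNP and from 23.7 to 37.4 CPM in that group, Hand2 from 0.715 to 0.851 CPM and from 0.629 to 1.24 CPM, Pitx1 from 1.24 to 2.67 CPM and from 1.65 to 3.71 CPM, and Prrx1 from 2.78 to 5.38 CPM and from 2.99 to 5.42 CPM. Twist1 ranged from 9.21 to 11.8 CPM in WT GNP, above the 7.75 to 9.16 CPM of that group, and Meox1 from 8.004 to 9.85 CPM, below its 13.6 to 14.6 CPM. Msx1 ranged from 1.95 to 3.90 CPM in WT GNP and from 2.755 to 3.818 CPM in that group. Beside Ezh2 KO of line 19568 in set 2 the pattern was another. There Twist2 (32.5 to 39.0 CPM), Pitx1 (3.65 to 4.59 CPM), Msx1 (4.43 to 5.62 CPM) and Meox1 (11.4 to 14.5 CPM) lay above WT GNP. Twist1 (10.3 to 11.6 CPM), Hand2 (0.733 to 1.04 CPM) and Prrx1 (2.33 to 4.74 CPM) overlapped it. Cas9 of line 19568 in set 1 also overlapped WT GNP for Pitx1 (0 to 1.44 CPM), Msx1 (2.23 to 4.52 CPM) and Prrx1 (4.57 to 13.3 CPM). Its Twist2 (30.4 to 50.5 CPM) lay above WT GNP. Its Twist1 (4.52 to 5.71 CPM), Hand2 (0.0526 to 0.618 CPM) and Meox1 (3.33 to 6.09 CPM) lay below. Genotype and set both differ between the WT GNP libraries and the others and cannot be told apart. The Gfi1 of the label and the Ezh2 knockout differ as well between WT GNP and Ezh2 KO of line 19568.

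**Figure D5:**
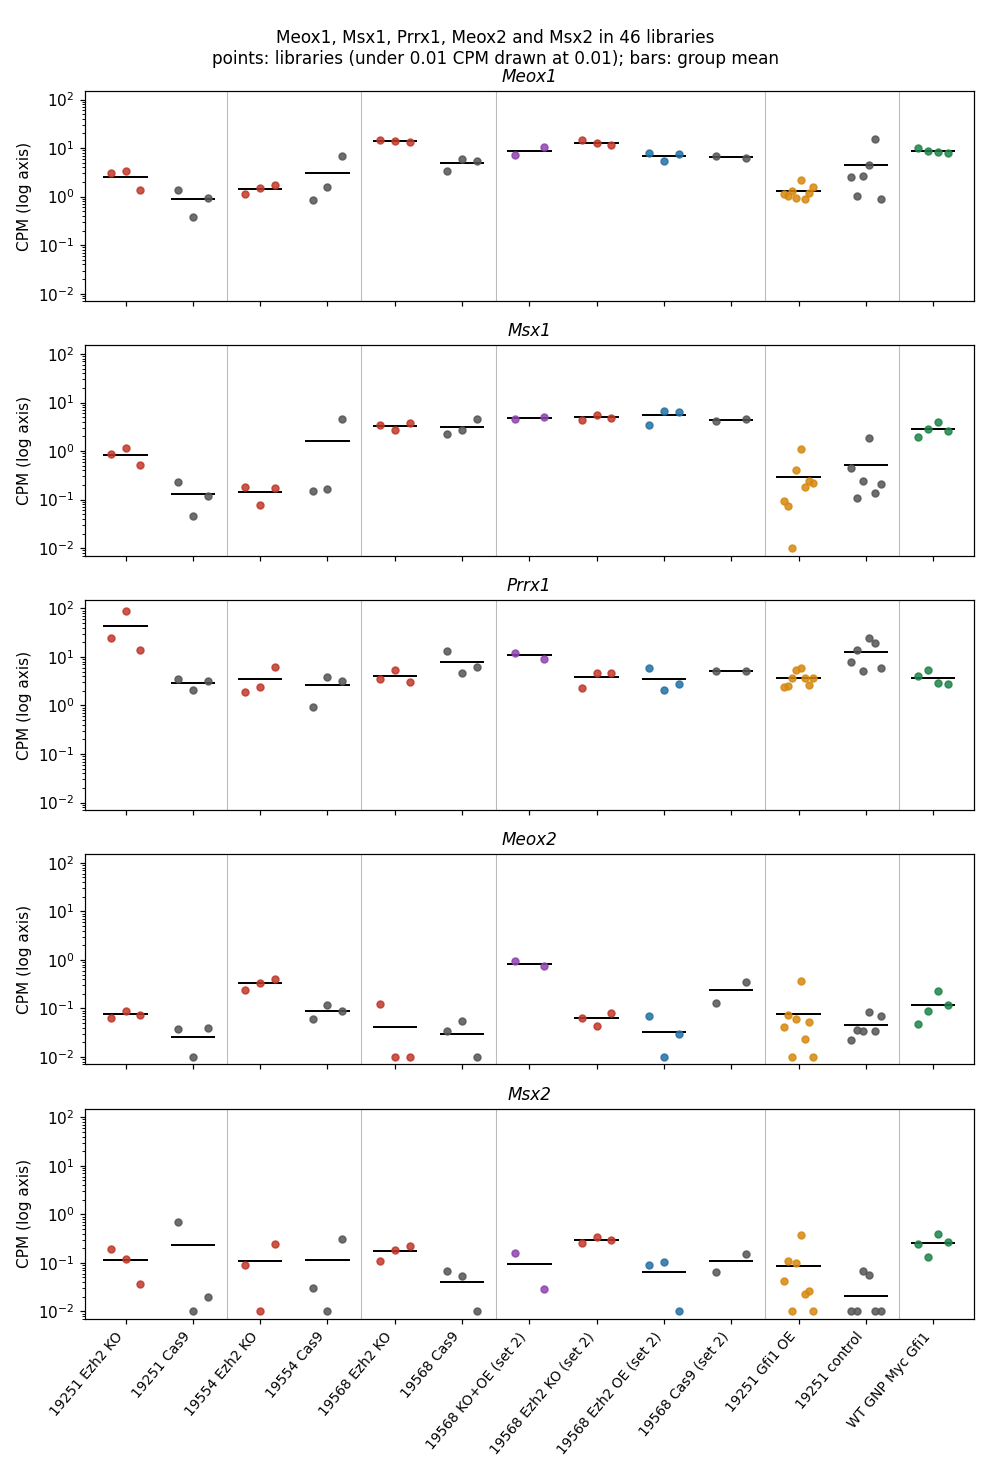
Levels of Meox1, Msx1, Prrx1, Meox2 and Msx2 in CPM (log axis) in 46 libraries of 13 groups, with a point per library, a bar at the group mean and values under 0.01 CPM drawn at 0.01. The group means of Meox1 and Msx1 are highest in groups of line 19568, Prrx1 reaches 88.1 CPM in 1 Ezh2 KO library of line 19251, and Msx2 stays under 0.7 CPM.

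Across the 13 groups the members fell into different orders. Twist2 averaged between 23.4 and 41.0 CPM in the 6 groups of line 19568 and in WT GNP, whose neighbours in the order all overlap. It then dropped without overlap to 6.01 ± 0.309 CPM in Ezh2 KO of line 19554 and 4.93 ± 1.12 CPM in that of line 19251 (SD, n = 3 each), and again without overlap to a mean of 0.319 CPM or less in the remaining groups. Hand2 and Pitx1 were highest in those same Ezh2 KO groups, at 2.91 ± 0.881 and 2.48 ± 0.123 CPM for Hand2 and at 11.8 ± 3.24 and 8.80 ± 1.47 CPM for Pitx1. Both groups overlap each other and neither overlaps the next, Ezh2 KO of set 2. Twist1 led in Ezh2 KO of line 19554 (29.6 ± 7.65 CPM) and was lowest in Cas9 of that line (0.605 ± 0.460 CPM). Of the 12 steps between neighbouring groups, Twist1, Hand2 and Meox1 had 3 without overlap, Twist2 and Msx1 2, Pitx1 and Meox2 1, and Msx2 and Prrx1 0.

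Other genes were ranked by how closely their group means followed a member (Pearson's r of log2(mean CPM + 0.1) over the 13 groups, among 17228 genes, a description since groups share lines and sets). Twist2 was followed most closely by Fam83h (0.972), Gpr124 (0.970) and Gjc1 (0.967), and Hand2 by Hoxd8 (0.940), Vax2 (0.930) and Hoxd4 (0.928). Pitx1 was followed by 1700109F18Rik, Hoxd3 and Hoxc13 (0.968, 0.968 and 0.959), and Twist1 by Tmem2, Tbx18 and Arl4c (0.942, 0.925 and 0.903). For Meox1 these were Angptl2, Rest and Rhod (0.970, 0.961 and 0.952), for Msx1 Cmtm7, Scarf2 and Tubgcp4 (0.968, 0.955 and 0.954), and for Prrx1 Ifnar2, Gm17717 and Postn (0.917, 0.882 and 0.874). Among members, r was 0.896 for Hand2 with Pitx1, 0.898 for Meox1 with Msx1 and 0.739 for Twist2 with Msx1. Homeobox genes of the Hox clusters, which pattern the body axis, appear beside Hand2 and Pitx1.

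The genes on either side of each member in RefSeq's gene order were followed as well. Twist1 lies beside Hdac9 and Twist2 beside Hdac4, related class II histone deacetylases, and 10 of the 18 neighbours were tested in set 1. None was called in Ezh2 KO of any line of set 1, including those where the member itself was. Hdac4 had log2 changes of -0.68 (SE 0.40) and -0.64 (SE 0.40) in lines 19251 and 19554, beside Twist2 at 4.93 and 6.01 CPM in Ezh2 KO, and Hdac9 had 0.29 (SE 0.82) and 1.82 (SE 0.85). Next to Pitx1, H2afy had 0.52 (SE 0.34) and 0.17 (SE 0.34). In Ezh2 KO of set 2, 2 of 10 tested neighbours were called and both fell, Cytl1 beside Msx1 by 5.37 (SE 0.81) and Fbxo8 beside Hand2 by 0.39 (SE 0.08) on the log2 scale, where 3.23% of all genes were called lower. In Gfi1 OE, 1 of 9 was called, Etv4 beside Meox1, with a log2 change of -2.81.

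Related genes outside the members were counted from 8 lists. In the 3 lines of set 1, Ezh2 KO changed few of them. Of all genes 0.243% and 0.454% were called higher in lines 19251 and 19554, and 0.027% were called in either direction in line 19568. In line 19251, 1 gene passed, the cartilage collagen Col2a1, at 35.2 ± 39.1 CPM in Ezh2 KO and 1.19 ± 0.92 CPM in Cas9. In line 19554, 1 of 7 paired-like factors passed, Alx1 of face mesenchyme, which averaged 14.1 ± 1.59 CPM in Ezh2 KO and 0.0394 ± 0.0445 CPM in Cas9. In line 19568, 1 of 10 NK-like factors passed, Msx3, at 10.8 ± 1.43 CPM in Ezh2 KO and 0.404 ± 0.102 CPM in Cas9 (SD, n = 3 each). None of the 20 mesenchymal and matrix genes passed in any of these lines, and their median log2 change was 1.11, -0.04 and 0.10 in lines 19251, 19554 and 19568. None of 15 BMP genes, 15 limb bud genes or 5 factors of epithelial-mesenchymal transition passed either. Of the 9 other Twist and Hand family factors 3 were tested in set 1, 2 in set 2 and 1 with Gfi1 OE, and none was called in these comparisons.

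In set 2 more passed in Ezh2 KO, as did more of all genes, with 5.88% called higher and 3.23% called lower. Of the paired-like factors 5 of 6 tested rose, among them Uncx and Shox2 of the axial and limb skeleton, with Shox2 at 1.06 ± 0.183 CPM in Ezh2 KO (n = 3) and 0.0959 ± 0.0446 CPM in Cas9 (n = 2). Of 14 limb bud genes 4 rose, led by Lhx9 (log2 change 4.26) and Tbx3 (2.87), and of 9 NK-like factors 3 rose, led by Barx1 and Msx3. Of 20 mesenchymal genes 3 rose, including the protease Fap (1.53) and the metalloprotease Mmp14 (1.11). Of 15 BMP genes 1 rose, Bmp5 (2.67), and 1 fell, the inhibitor of differentiation Id2 (-1.84). Of 7 skeleton genes 1 rose, Col2a1 (1.14), and of 5 factors of epithelial-mesenchymal transition 1 rose, Foxc2 (1.23). Median log2 changes were 2.12 for the paired-like, 0.67 for the limb bud, 0.91 for the NK-like and -0.08 for the mesenchymal list, against 0.00 over all genes. In the rescue against Ezh2 KO, Uncx fell by 4.46, while Fap rose by 1.97 and Sparc by 0.89 on the log2 scale. In the rescue over Cas9, where 5.14% of all genes were called higher, 2 of 6 paired-like factors were, Shox2 (2.73) and Alx1 (2.6). Of 14 limb bud genes 3 were higher, Lhx9 (3.19), Fgf10 (1.83) and Osr2 (1.58), and of 9 NK-like factors 0. Of 20 mesenchymal genes 5 were higher, led by Fap (3.5) and Mmp14 (1.68). Of 15 BMP genes 3 were higher and 1 lower, Id2 (-1.31). Runx2 (2.07) of the skeleton list and Foxc2 (1.23) were higher as well.

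With Gfi1 OE, where 24.6% of all tested genes were called and 13.5% were called lower, 8 of 20 mesenchymal genes fell and 1 rose, with a median log2 change of -1.26 against -0.03 over all genes. Acta2 of smooth muscle fell by 3.61 and the matrix protein Postn by 3.58 (Acta2 10.3 ± 13.8 CPM in Gfi1 OE, 126 ± 245 CPM in controls, SD, n = 8 and 6). Acta2 is also on the pericyte and smooth muscle list, of which Abcc9 (2.19) and Kcnj8 (1.25) were called higher. Of 13 limb bud genes 4 fell and 1 rose, with Meis1, a homeobox cofactor, at 4.51 ± 3.78 CPM in Gfi1 OE and 110 ± 45.3 CPM in controls, and Lmx1b of the dorsal limb higher by a log2 change of 6.44. The paired-related factor Prrx2 fell, with a log2 change of -2.77. NK-like factors moved both ways, with 2 up and 3 down of 8, among them Barx2 at 4.61 and En1, which fell by 4.66. Of 14 BMP genes 2 rose and 6 fell, led by Bmp7 (3.48) and Bmp2, which fell by 3.26, and Foxc2 rose by 5.05 while Zeb2 fell by 1.02.

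Between Cas9 controls, 1.86% of all genes were called higher in line 19568 than in line 19251, and 2.35% than in line 19554. Of 20 mesenchymal genes 3 were higher in line 19568 than in line 19251. They were led by the fibrillar collagen Col3a1, at 1200 ± 386 CPM in line 19568 and 67.9 ± 54.3 CPM in line 19251. Col2a1 was higher as well, at 150 ± 13.9 CPM and 1.19 ± 0.92 CPM. Snai1, a zinc-finger factor of epithelial-mesenchymal transition, was higher by a log2 change of 4.20 (edgeR adjusted p 0.0225). Of 15 limb bud genes Sall4 (5.79) and Fgf10 (3.60) were higher, and of 10 NK-like factors Dlx2 was lower, with a log2 change of -4.09. Against line 19554, Alx1 measured 3.3 ± 1.55 CPM in line 19568 and 0.0394 ± 0.0445 CPM in line 19554, and Col3a1 and Sall4 were higher in line 19568 too (log2 changes 3.40 and 6.77). Zeb1, on the same list as Snai1, and Chrd of the BMP list were called lower in line 19568 than in line 19554 (-0.87 and -3.25). These genes and the members were compared on the same libraries.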

How the data were processed

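RNA-seq was counted in 48 libraries. The deposited files hold raw counts per gene symbol, made by the authors. The submitters' processing notes name CASAVA 1.7, STAR, BWA, HTSeq, limma, R 3.2.3 and mm9, and their roles, the annotation and the strand setting are not given in the sources used here. Lines that name no gene were left out of totals: 19.6% to 42.6% of reads had no feature, 0.438% to 2.26% were ambiguous and 2.7% to 71.55% were not aligned. No 2 libraries were identical.

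Counts were tested with edgeR 4.0.16 in R 4.3.3 (TMM scaling, filterByExpr, quasi-likelihood F-test, Benjamini-Hochberg over all tested genes, threshold 0.05), with the 18 libraries of set 1, 10 of set 2 and 14 of line 19251 with and without Gfi1 OE fitted separately. Alternatives were other size factors, DESeq2 1.42.0, limma-voom (limma 3.58.1), other filters, a replicate block, a line alone, libraries as labelled and leaving out each library. Adjusted p-values come from edgeR unless another tool is named. The groups of a fit shared an estimate of the spread of each gene. Scripts were tested on simulated data. Intervals (95%) of log2 changes use edgeR's SE and degrees of freedom, and intervals of ratios and the floor of 3 counts cover counting error only. The titles number the replicates and do not say that same-numbered libraries are pairs. Deviations of same-numbered Ezh2 KO and Cas9 libraries of set 1 correlated at 0.172, 0.399 and 0.139 in line 19568. They correlated at 0.087, 0.063 and 0.254 in line 19554 and at -0.155, -0.032 and -0.194 in line 19251. Deviations within a group sum to 0, so these values cannot decide whether the numbers are pairs. With the replicate block 0 members were called in line 19568 of set 1, as without it. Gfi1 OE libraries were numbered in accession order.

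The members and lists were chosen with earlier results of these data known. Genes named besides the members were those of the lists that passed the threshold, the neighbours in gene order, and the 3 genes most like each member. The count of the paired-like list with Gfi1 OE is not reported here.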

Additional observations from a re-analysis of the deposited data

Results flagged for a closer look

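Among 26 combinations of a gene and a group of 4 to 10 libraries, 8 held a library far from the others. The limit used flags about 1 in 20 for independent values of normal shape. CPM of genes with few reads are not such values, and most flags came from Gfi1 OE replicate 5, so no excess is read from the 8. Gfi1 OE replicate 7 held 2.19 CPM of Twist2 (83 reads). Gfi1 OE replicate 5, the shallowest library, held 0.744 CPM of Hand2 (2 reads), 1.86 CPM of Pitx1 (5 reads), 0.372 CPM of Meox2 (1 read), 1.12 CPM of Msx1 (3 reads) and 0.372 CPM of Msx2 (1 read). Control replicate 5 held 15.6 CPM of Meox1 (451 reads), and control replicate 4 held 1.89 CPM of Msx1 (68 reads).

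The log2 change of Twist2 with Ezh2 KO differed between lines, by -6.66 for line 19568 minus line 19251 (edgeR adjusted p 0.000631 over the 3 lines).

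The library titled Cas9 replicate 1 of set 2, which entered no group, held 16.9 CPM of Twist1 (364 reads), 0.512 CPM of Hand2 (11 reads), 2.93 CPM of Meox2 (63 reads) and 23.1 CPM of Prrx1 (497 reads), each above both other Cas9 libraries of the set.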

How the results depend on the processing

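The number of members called was recomputed under each alternative. With DESeq2, 4 were called in Ezh2 KO of line 19251 (2 with edgeR), 5 in the difference between lines (1) and 2 between Cas9 of lines 19554 and 19251 (0). With limma-voom 1 was called in Gfi1 OE (2). The replicate block gave 0 in Ezh2 KO of line 19251, 1 in that of line 19554 (4 without it), 0 in the difference, 1 between Cas9 of lines 19568 and 19554 (2), 1 in Ezh2 KO of set 2 (3), 0 in the rescue over Ezh2 KO (2) and 0 in the rescue over Cas9 (1). No paired analysis was possible for Gfi1 OE because all its titles carry the same number. Fitted alone, line 19251 gave 0. With all 12 libraries of set 2 as labelled, 1 was called in Ezh2 KO, 1 in the rescue over Ezh2 KO and 0 in the rescue over Cas9. A minimum of 1 CPM left 1 in the rescue over Ezh2 KO, and no low-count filter gave 2 in the rescue over Cas9.

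Leaving out each library gave 2 to 3 calls in Ezh2 KO of line 19251, 2 to 4 in line 19554 (2 without Cas9 replicate 1 or 3), 1 to 2 in the difference, 1 to 4 between Cas9 of lines 19568 and 19251, 1 to 3 between those of lines 19568 and 19554, 0 to 1 between those of lines 19554 and 19251, 1 to 4 in Ezh2 KO of set 2, 0 to 3 in the rescue over Ezh2 KO, 0 to 1 in the rescue over Cas9 and 1 to 3 in Gfi1 OE. The causes were not tested.

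Of 1789 alternatives for single members 37 changed sign, all of values not called. Of these, 24 were in the comparisons that chose the members, including Meox1 (-1.06, and 0.26 without Cas9 replicate 3) and Prrx1 (0.42, and -0.27 without Ezh2 KO replicate 3) in Ezh2 KO of line 19554, and the other 13 follow. Between Cas9 of lines 19568 and 19251, Twist1 (-0.05) became 0.83 with limma-voom, 0.28 with the replicate block and -0.60 to 1.06 with a library left out (1.06 without Cas9 replicate 2 of line 19251, 0.03 without Cas9 replicate 3 of line 19568). Pitx1 ranged from -4.53 to 4.28 there and from -3.49 to 4.44 against line 19554, each lowest without Cas9 replicate 1 of line 19568. Between Cas9 of lines 19554 and 19251, Hand2 ranged from 0.00 (without Cas9 replicate 2 of line 19554) to 2.22, Pitx1 from -1.93 to 0.72 (without Cas9 replicate 3 of line 19251), and Prrx1 from -0.57 to 0.20, with 0.05 and 0.20 without Cas9 replicate 1 of line 19251 or of line 19554. In Ezh2 OE, Twist1 became -0.29 as labelled, and leave-outs gave -0.32 to 0.04 for Twist2 (0.04 without Ezh2 OE replicate 1) and -0.15 (without Ezh2 OE replicate 3) to 3.14 for Pitx1. Over all genes DESeq2 called 842, 556 and 76 in Ezh2 KO of lines 19251, 19554 and 19568, against 48, 89 and 5 with edgeR. Members under about 1 CPM rest on few reads.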
